A study of Mus musculus with 2 samples.

Results

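The genes described here are 34 genes of protein folding, quality control and degradation in the endoplasmic reticulum (ER), read in peritoneal macrophages with and without Lgmn. They were chosen by name, from the known chaperones, disulfide isomerases, unfolded protein response sensors and ER-associated degradation genes, by a rule that uses no measured value. They are 34 of the 15605 genes listed in either library. One library came from Lgmn knockout (lgmn-/-) and the other from wild type peritoneal macrophages, the phagocytes resident in the abdominal cavity. Both groups were C57BL/6 mice aged 6 to 8 weeks, and both sets of macrophages had been kept with EO771 cells, a C57BL/6 mammary carcinoma line, for 4 days before RNA was taken. Which exons of Lgmn were deleted, how many mice gave each library and whether a membrane separated the cells are not given in the sources used here. With 1 library per genotype nothing could be tested across replicates and no p-value is given, so higher and lower describe these 2 libraries only. Depth was alike, at 11740202 estimated counts in the knockout library and 11885784 in the wild type library. Lgmn, a lysosomal cysteine protease, had 426 counts in the knockout library, against 23550 in the wild type library, the order the labels give.

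Secreted, membrane and lysosomal proteins enter the ER through the Sec61 channel and fold there with the help of the Hsp70 chaperone BiP (Hspa5), the Hsp90 chaperone Grp94 (Hsp90b1), the lectins calnexin and calreticulin and the protein disulfide isomerases. Chains that fail to fold are drawn back to the cytosol by an E3 ubiquitin ligase complex built around Hrd1 (Syvn1) and Sel1l, and are destroyed by the proteasome, a route called ER-associated degradation. Unfolded chains activate 3 membrane sensors, Ire1 (Ern1), Atf6 and Perk (Eif2ak3), and the transcription factors made downstream, spliced Xbp1 and cleaved Atf6, raise the genes for chaperones and degradation. Macrophages depend on this machinery for cytokines, surface receptors and lysosomal enzymes such as legumain itself.

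A DNA element in their promoters ties many of these genes together. The ER stress response element (ERSE), CCAAT and CCACG with 9 bases of any kind between them, is known to bind NF-Y at one end and Atf6 or Xbp1 at the other. Both strands were searched from 250 bases before to 50 bases after the start sites in a RefSeq table of GRCm38.p6, the assembly that mm10 names, where 29 of the 34 members had an entry. Of these 29, 10 held the element, 34.5%, against 37 of all 27025 genes in the table, 0.137%. So 10 of the 37 genes with the element in this window belong to the 34. The windows below are shown because they carry that shared feature. Each reads 5′ to 3′ along the gene, with the element and its spacer in capitals.
Hspa5: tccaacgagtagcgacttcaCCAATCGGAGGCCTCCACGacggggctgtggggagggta
Canx: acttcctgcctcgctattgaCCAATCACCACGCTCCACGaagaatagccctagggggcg
Pdia6: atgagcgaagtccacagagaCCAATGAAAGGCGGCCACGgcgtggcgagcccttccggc
Dnajc3: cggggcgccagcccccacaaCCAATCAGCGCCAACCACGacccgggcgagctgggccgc
Syvn1: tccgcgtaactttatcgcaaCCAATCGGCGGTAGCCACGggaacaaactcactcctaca
Calr: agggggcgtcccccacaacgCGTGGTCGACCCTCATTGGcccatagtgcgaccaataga
Creld2: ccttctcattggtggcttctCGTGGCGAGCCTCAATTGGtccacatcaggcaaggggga
Ero1lb: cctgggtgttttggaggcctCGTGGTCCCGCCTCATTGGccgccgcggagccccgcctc
The first 5 hold the element on the strand of the gene and the other 3 on the opposite strand. The Hspa5 window lies at chr2:34772005-34772063 on the plus strand, with the element 65 to 47 bases before the start site. That of Syvn1, at chr19:6046512-6046570 on the plus strand, has its element 44 to 26 bases before the start. The other windows are Canx at chr11:50325780-50325838 (minus), Pdia6 at chr12:17266471-17266529 (plus), Dnajc3 at chr14:118937807-118937865 (plus), Calr at chr8:84847055-84847113 (minus), Creld2 at chr15:88819500-88819558 (plus) and Ero1lb at chr13:12565662-12565720 (plus).

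Hsp90b1 held the element on both strands and Derl3 held it once. The related element ERSE-II, ATTGG and CCACG with 1 base between them, was in 2 of the 29 member promoters and in 12 of all 27025 genes. Their windows are given for the shorter spacer, again with the element in capitals.
Herpud1: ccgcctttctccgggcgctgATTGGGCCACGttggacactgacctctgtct
Dnajb11: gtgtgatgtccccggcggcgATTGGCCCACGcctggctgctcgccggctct
The Herpud1 window is chr8:94386357-94386407 and that of Dnajb11 chr16:22857832-22857882, both on the plus strand. The sequence TGACGTG, the core of the unfolded protein response element, was in the promoters of Hspa5 and Vcp and in 601 of the 27025 genes, 2.22%. A match is a description of the letters and not a bound site.

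None of the ER genes compared differed by 2-fold between the libraries after TMM scaling. Of the 34 members, 33 reached 50 estimated counts in at least 1 library and were compared; all 33 were listed in both files, so no member was compared only because 1 library held it. Derl3, a derlin of secretory tissues, had 0 counts in the knockout library and 1 in the wild type library and was left out. TMM, the trimmed mean of M values, sets a scaling factor from the bulk of the genes. On this scale 0 members were at least 2-fold higher in the knockout library, where 6.05% of 9498 genes were, and 0 were at least 2-fold lower, where 1.74% were. At 1.5-fold, 1 member was higher, Syvn1, against 16.4% of all genes tested, and 0 were lower, against 6.39%. The other 32 lay within 1.5-fold, as did 77.2% of all genes tested. The median log2 ratio of knockout over wild type was -0.16 over the 33 members and -0.0006 over all genes tested, with 22 members below 0 and 11 above. Of all genes tested, 4755 were below 0 and 4743 above. The quartiles of the members were -0.26 and 0.15, and those of all genes tested -0.29 and 0.39.

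The sign of the members' median rested on the scaling. With library totals in place of TMM factors the median of all genes tested was 0.24, that of the members 0.075, and 22 members were above 0. Deposited FPKM gave the same count above 0, a median of 0.077 for the members and of 0.23 for all genes. Those that turned to above 0 with deposited FPKM were Hspa5, Hsp90b1, Creld2, Dnajb11, Pdia6, Ero1l, Xbp1, Herpud1, Edem1, Selenos and Ssr1. Under each of the 3 scalings the members' median lay 0.16 below that of all genes tested. Changing between these scalings moves all genes nearly alike, so this gap could hardly change. With TMM scaling it was 0.087 at a minimum of 200 counts, and 0.10 with the trend over transcript length subtracted. All members together held 53718 counts in the knockout library, 0.458% of it, and 50142 in the wild type library, 0.422%.

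**Figure D1:**
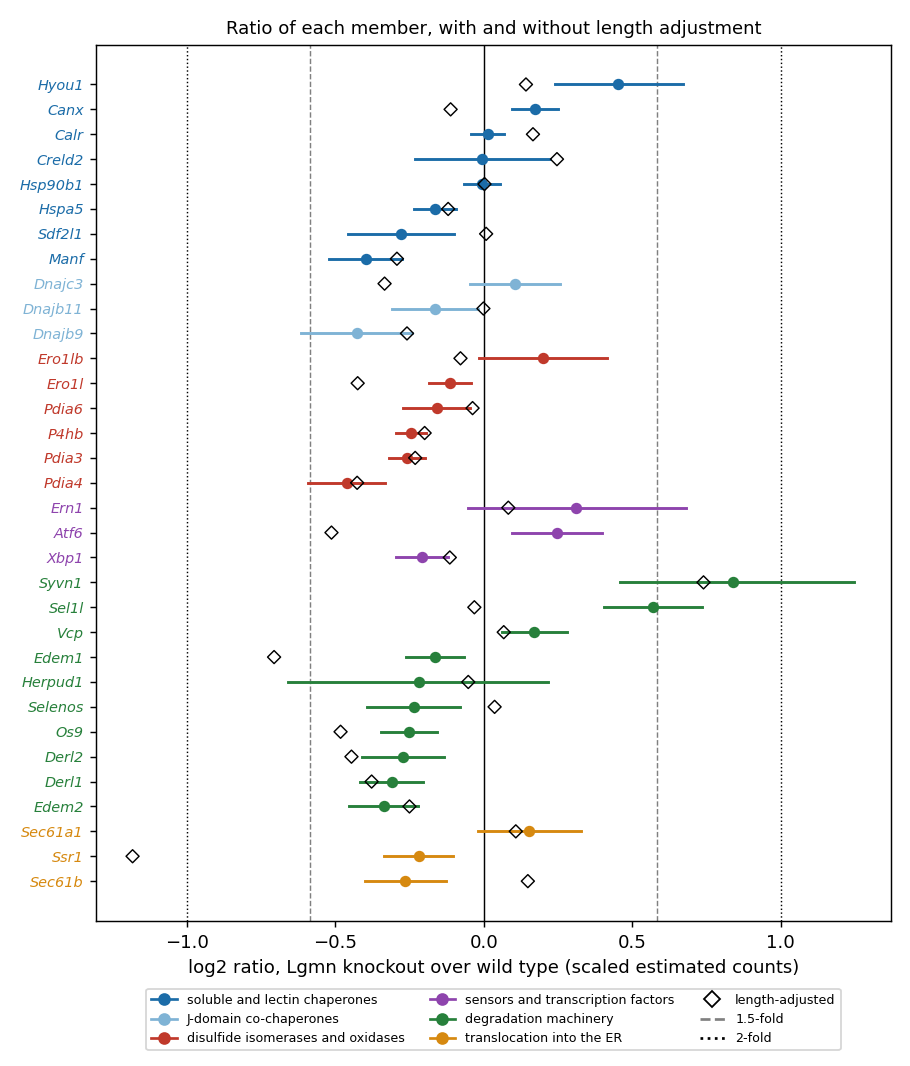
Log2 ratio of knockout over wild type (horizontal axis) for the 33 members compared, grouped by role. Filled points are scaled estimated counts, bars are 95% exact Clopper-Pearson intervals of the ratio that cover counting error only, and open diamonds are values after subtraction of the trend with transcript length. Only the filled point of Syvn1 lies beyond 1.5-fold (dashed), and only the diamond of Ssr1 lies beyond 2-fold (dotted).

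Levels, compared between genes per transcript length as FPKM, ran from under 5 FPKM to over 100 in both libraries. The 6 members with the highest FPKM were the same in both, and they were the only members above 100 FPKM in either. Calr, which encodes the calcium-binding lectin calreticulin, stood at 239 FPKM in the knockout library and 200 in the wild type library. P4hb, the founding disulfide isomerase, had 210.68 and 211.24 FPKM in knockout and wild type. Sec61b, a small subunit of the translocation channel, had 139.94 FPKM in knockout and 142.13 in wild type. Pdia3, the isomerase that works with the lectins on glycoproteins, had 139.14 in knockout and 140.71 in wild type, and Hsp90b1 had 138.88 and 117.95 in that order. Hspa5 was the last of the 6, at 113.92 FPKM in the knockout library and 107.83 in the wild type library. At the other end stood Ern1 with 3.26 FPKM in knockout and 2.22 in wild type, Herpud1 with 4.07 and 4.01, and Syvn1 with 4.43 and 1.97. Of the 33 members, 29 were above the median FPKM of all genes tested in the knockout library and 26 in the wild type library.

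**Figure D2:**
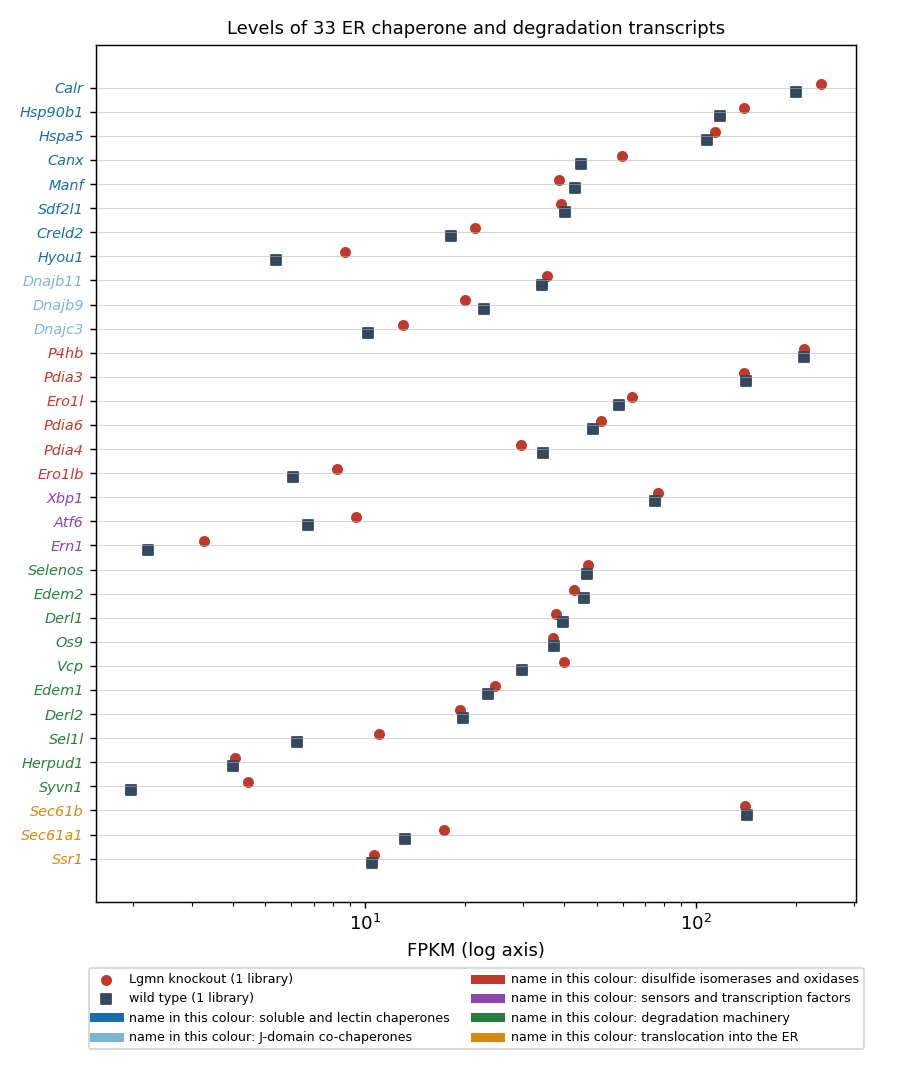
FPKM on a log axis for each of 33 members in the Lgmn knockout library (circles, upper) and the wild type library (squares, lower), 1 library each. Names are coloured by role and ordered by level within a role; Calr and P4hb lie highest, and the widest gaps between circle and square belong to Syvn1 and Sel1l.

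The 8 chaperones had a median log2 ratio of -0.0050, and 0 of them passed 1.5-fold. Calr had 5485 counts in the knockout library and 4663 in the wild type library, a scaled ratio of 1.01 with a 95% counting interval of 0.970 to 1.05. For Hsp90b1 the counts were 4560 in knockout and 3927 in wild type, a ratio of 0.996 (0.954 to 1.04). Hspa5, the chaperone whose transcript is the usual gauge of ER stress, had 3451 and 3317 counts in knockout and wild type. Its ratio was 0.893 (0.851 to 0.936), and its log2 value of -0.16 was 0.079 with deposited FPKM, so its direction depended on the scaling. Canx, the membrane-bound lectin calnexin, had 3066 counts in the knockout library, against 2332 in the wild type library, a ratio of 1.13 (1.07 to 1.19), and its log2 ratio of 0.17 turned to -0.11 with the length trend subtracted. The chaperone with the highest ratio was Hyou1, an exchange factor for Hspa5, with 463 counts in knockout and 290 in wild type and a ratio of 1.37 (1.18 to 1.59). Subtracting the length trend took its log2 ratio to 0.14. Manf, a secreted stress-induced cofactor of Hspa5, had the lowest, with 1010 counts in knockout and 1141 in wild type and 1.32-fold lower (1.21 to 1.43). Sdf2l1, a luminal partner of the J-domain proteins, had a log2 ratio of -0.28, and Creld2, a stress-induced protein of the ER, one of -0.0044. The chaperones that carry the promoter element, Hspa5, Hsp90b1, Calr, Canx and Creld2, thus lay from -0.16 to 0.17.

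J-domain proteins hand clients to Hspa5 and set off its ATPase. Dnajb9 (ERdj4), which also holds Ire1 in its inactive state, had 443 counts in the knockout library and 511 in the wild type library, 1.34-fold lower (1.18 to 1.53). Dnajb11 (ERdj3), a soluble co-chaperone, had 801 counts in knockout and 770 in wild type, a log2 ratio of -0.16. Dnajc3 (p58IPK), also known as an inhibitor of Perk, had 810 and 646 in knockout and wild type, a log2 ratio of 0.11 that turned to -0.33 with the length trend subtracted. The 3 genes lay on both sides of 0 and all within 1.5-fold.

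Among the disulfide isomerases and the oxidases that recharge them, 5 of 6 had a log2 ratio below 0 by scaled counts. Of the 9498 genes tested, 4755 did. The median of the 6 was -0.20. P4hb had 6356 counts in the knockout library and 6462 in the wild type library, and was 1.19-fold lower (1.14 to 1.23). Pdia3 had 4399 in knockout and 4511 in wild type, 1.20-fold lower (1.15 to 1.25). Pdia4, an isomerase with 3 active domains, had the lowest ratio of all 33 members, with 916 counts in knockout and 1082 in wild type and 1.38-fold lower (1.26 to 1.51). Under library totals and under deposited FPKM these ratios were closer to 1, and the log2 value of Pdia4 was -0.22 with deposited FPKM. Pdia6, which also damps Ire1, had 1301 and 1245 counts in knockout and wild type and a log2 ratio of -0.16. With deposited FPKM the log2 value of Pdia6 was 0.083, so its direction depended on the scaling. Of the oxidases, Ero1l, the form induced by hypoxia, had 3383 counts in the knockout library and 3140 in the wild type library. Its log2 ratio was -0.11 by scaled counts and 0.13 with deposited FPKM, so its direction depended on the scaling too. Its paralogue Ero1lb, the form linked to the unfolded protein response, had 418 counts in knockout and 312 in wild type. By scaled counts Ero1lb had the only log2 ratio of the 6 above 0, at a ratio of 1.15 (0.990 to 1.34). With the length trend subtracted its log2 ratio of 0.20 turned to -0.08, and all 6 lay below 0, as did 4856 of the 9498 genes tested. Their levels differed, with Ero1l at 63.77 FPKM in knockout and 58.37 in wild type, and Ero1lb at 8.22 in knockout and 6.05 in wild type.

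The sensors and their transcription factor lay within 1.5-fold too. Ern1, the kinase and ribonuclease Ire1, had 155 counts in the knockout library and 107 in the wild type library, a ratio of 1.24 with an interval of 0.965 to 1.61. At these counts a difference of that size cannot be told from counting error. Atf6, the sensor that is cleaved in the Golgi, had 845 counts in knockout and 611 in wild type, a ratio of 1.19 (1.07 to 1.32). Its transcript is 7463 bases long, and with the length trend subtracted its log2 ratio of 0.25 became -0.51. Xbp1, whose RNA Ire1 splices, had 2059 counts in knockout and 2040 in wild type, 1.15-fold lower (1.09 to 1.23) by scaled counts. Its log2 value of -0.21 was 0.033 with deposited FPKM, so its direction depended on the scaling. The 2 Xbp1 transcripts in the annotation, NM_001271730 and NM_013842, were counted together, and the deposited mean length of Xbp1 was 2262.91 bases in knockout and 2261.52 in wild type. Counts per transcript were not analysed here, so no share of spliced Xbp1 is given.

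In the degradation machinery the ligase and its partner had the 2 highest ratios of all members, and 7 of the 10 genes compared were below 0. Of the 9498 genes tested, 4755 were below 0. Syvn1, the ligase Hrd1 (chromosome 19, 6046576 to 6053718 in GRCm38), had 170 counts in the knockout library and 81 in the wild type library. It was 1.80-fold higher (1.37 to 2.38) by scaled counts. Its log2 ratio was 0.84, became 0.74 with the length trend subtracted, and was 1.13 with deposited FPKM. Sel1l, the adaptor that holds the ligase complex together (chromosome 12, 91806043 to 91849157), had 826 counts in knockout and 477 in wild type and was 1.49-fold higher (1.33 to 1.67). Its transcript is long, and length adjustment took its log2 ratio from 0.57 to -0.03. Syvn1 was therefore the only member past 1.5-fold on the higher side both with and without the adjustment, and its 81 counts were the fewest of any compared member in the wild type library. An exon of Mrpl49 overlaps an exon of Syvn1 by 91 bases on the opposite strand, with 247 counts in knockout and 240 in wild type, and strand handling is not given. The deposited mean length of Syvn1, an average over 2 transcripts, was 3215.19 bases in knockout and 3393.07 in wild type, the largest difference of any member.

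The other degradation genes had lower ratios than the ligase and its adaptor. Herpud1, a ligase cofactor that stress induces strongly, had 90 counts in each library, a scaled ratio of 0.858 (0.633 to 1.16). Derl1 and Derl2, membrane proteins of the retrotranslocation channel, had log2 ratios of -0.31 and -0.27, with 1412 and 848 counts in knockout and 1502 and 879 in wild type. Exons of Derl2 and Mis12 share 231 bases on opposite strands. Os9, a lectin that picks misfolded glycoproteins, had 1763 counts in the knockout library and 1800 in the wild type library, a log2 ratio of -0.25. Edem1 and Edem2, which trim mannose to mark glycoproteins for destruction, had 1738 and 1166 counts in knockout, against 1671 and 1264 in wild type, log2 ratios of -0.16 and -0.34. Selenos, the selenoprotein that recruits Vcp to the membrane, had 664 counts in knockout and 671 in wild type, a log2 ratio of -0.24. Vcp, the ATPase p97 that pulls chains out, was 1.13-fold higher (1.04 to 1.21), with 1572 counts in knockout and 1198 in wild type. The ligase, its adaptor and the ATPase were the 3 genes above 0.

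Of the translocation genes, Sec61a1, the channel itself, had 628 counts in the knockout library and 484 in the wild type library, a ratio of 1.11 (0.987 to 1.26). Sec61b had 870 in knockout and 896 in wild type, a log2 ratio of -0.26 that turned to 0.15 with the length trend subtracted. Ssr1, a subunit of the translocon-associated TRAP complex, had 1195 and 1193 counts in knockout and wild type, a log2 ratio of -0.22 and nearly equal FPKM of 10.69 and 10.52.

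Members with the promoter element had ratios on both sides of 0. The 9 that were compared had a median log2 ratio of 0.01, from -0.16 for Hspa5 to 0.84 for Syvn1, and the 19 compared members whose promoter window lacked it a median of -0.24. The other 5 compared members had no entry in the promoter table. These medians were taken without length adjustment. Among the 9, that adjustment turned Canx, Dnajc3 and Ero1lb to below 0, and Hsp90b1 and Creld2 to above 0. The 37 genes with the element include 12 that reached 50 counts, with a median of 0.04. This grouping was made after the members' values were known and is given without a test.

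Transcript length went with the ratio over all genes and was taken into account for the members. Split into 10 groups by length, all genes tested had a median log2 ratio of -0.37 among the shortest transcripts and 0.77 among the longest. The members' median length was 2759 bases, against 2744 for all genes tested. The 5 members over 5000 bases, Sel1l, Ssr1, Edem1, Atf6 and Dnajc3, had a median of 0.11, from -0.22 to 0.57, while the 1500 genes tested of that length had a median of 0.64. The 28 shorter members had a median of -0.19, against -0.08 for the 7998 shorter genes. Subtracting the trend gave a median of -0.11 over the members and -0.01 over all genes tested. It turned the sign of 10 of the 33 members. Canx, Dnajc3, Ero1lb, Atf6 and Sel1l turned to below 0, and Hsp90b1, Sdf2l1, Creld2, Selenos and Sec61b to above 0. On that scale 1 member was at least 1.5-fold higher, Syvn1, against 7.74% of all genes, and 2 were at least 1.5-fold lower, Edem1 at -0.71 and Ssr1 at -1.18, against 6.33%. Ssr1 was also past 2-fold, where 1.9% of genes lay, and 0 members were at least 2-fold higher, where 2.14% did. Ssr1 has the longest transcript of the members, at 9306 bases, and its counts were nearly equal in the libraries. The part that length plays in these ratios was not tested beyond this subtraction.

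**Figure D3:**
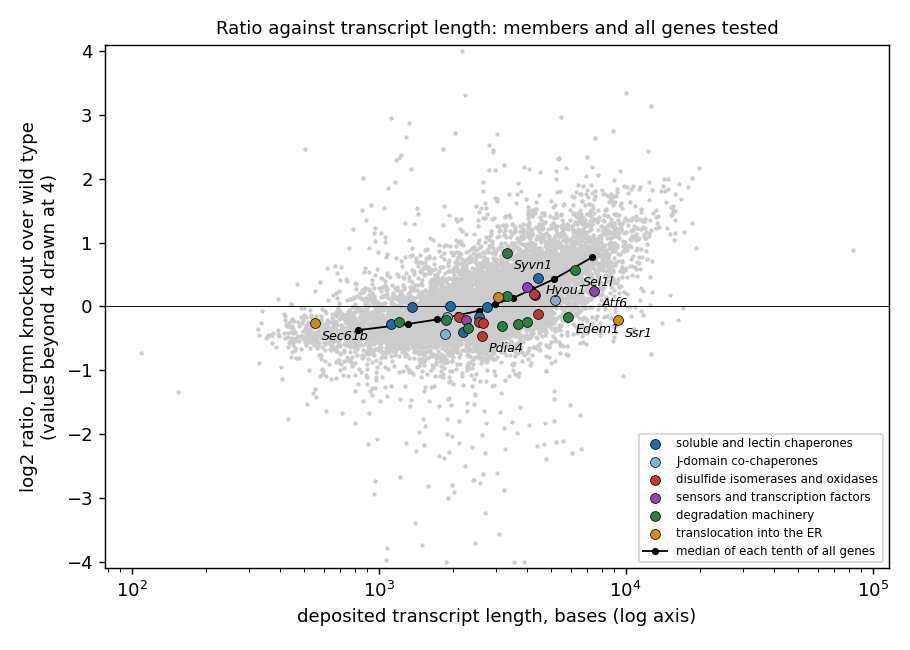
Log2 ratio of knockout over wild type against deposited transcript length (log axis) for all 9498 genes tested (grey) and the 33 members (coloured by role), 1 library per genotype. The black line joins the medians of 10 length groups, which run from -0.37 to 0.77. Syvn1 lies above the line, and Ssr1, Atf6 and Edem1 lie below it.

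Genes that neighbour the members in the same pathways were described from 11 lists of 171 genes, 158 of them compared. At 2-fold, 4 of these were higher and 6 were lower in the knockout library, and their median log2 ratio was -0.14. Over all genes tested 6.05% were higher and 1.74% lower at that size. With the length trend subtracted, 0 of the 158 passed 2-fold on the higher side and 7 on the lower side. Of all genes tested, 2.14% and 1.9% did so. At 1.5-fold 12 were higher and 14 lower by scaled counts, where 16.4% and 6.39% of all genes tested lay. After the subtraction these were 3 and 16, where 7.74% and 6.33% lay. The remaining disulfide isomerase family genes numbered 14 compared, with 0 past 2-fold and a median of -0.17. Tmx4, a membrane-bound thioredoxin, had the highest log2 ratio at 0.61 (257 counts in knockout and 144 in wild type), 0.18 after length adjustment, and Prdx4, the ER peroxiredoxin, the lowest at -0.53 (1557 and 1924). Of 24 further degradation genes, 0 passed 2-fold and the median was -0.10. Edem3, of the Edem family, was highest at 0.63, and Svip, an inhibitor of degradation, lowest at -0.57. For Edem3, 301 counts in knockout and 167 in wild type gave 1.55-fold higher (1.28 to 1.88), and length adjustment took its log2 ratio to -0.02.

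Glycan quality control held 1 of 8 genes past 1.5-fold, on the higher side, where 16.4% of all genes tested lay. Uggt1, which tests the fold of glycoproteins and sends them back to the lectins, had 450 counts in the knockout library and 193 in the wild type library, a log2 ratio of 0.997, or 0.06 with the length trend subtracted. Mcfd2, a cargo receptor subunit, was lowest at -0.27. Among 31 genes of the translocon, signal peptidase and oligosaccharyltransferase, 0 were higher and 3 lower at 1.5-fold, against 16.4% and 6.39% of all genes tested. The median of the 31 was -0.30. Sec11c, a signal peptidase subunit, had 1424 counts in knockout and 2245 in wild type and a log2 ratio of -0.88, while Spcs3 of the same complex had 0.29. Sec61g and Ssr4, partners of Sec61b and Ssr1, were the other lower genes at -0.60 and -0.59. After length adjustment 0 of the 31 passed 1.5-fold, where 7.74% of all genes tested were higher and 6.33% lower.

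The list of the Perk and Atf4 branch, named for the remaining sensor, had 13 genes compared and a median of -0.52. What drove these genes was not tested. Past 2-fold, 1 was higher and 2 were lower, where 6.05% and 1.74% of all genes tested lay. At 1.5-fold 2 were higher and 5 lower, where 16.4% and 6.39% lay. After length adjustment 0 were higher and 2 lower at 2-fold, where 2.14% and 1.9% of all genes tested lay. At 1.5-fold 2 were then higher and 4 lower, where 7.74% and 6.33% lay. The lower genes were not all the same ones. Ddit4 went from -1.09 to -0.88, while Slc7a11 went from -0.20 to -1.15. Ddit3, Nupr1 and Ppp1r15a no longer passed 1.5-fold, while Eif2s1 went from -0.57 to -0.64 and did. Asns, asparagine synthetase, had 28 counts in knockout and 120 in wild type, a log2 ratio of -2.28. Ddit3, the factor Chop, had 1421 counts in the knockout library and 1981 in the wild type library, a log2 ratio of -0.70, or -0.37 after length adjustment. Ppp1r15b, a subunit of the phosphatase that resets the branch, was highest at 1.14, with 609 counts in knockout and 237 in wild type, and 0.64 after length adjustment. Of 9 genes of the Atf6 family and its proteases, 0 passed 2-fold, with Mbtps1, the first protease to cut Atf6, at 0.61, or 0.33 after length adjustment, and Creb3l1 at -0.75.

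Beyond the lumen, 18 genes of vesicle export had a median of -0.18, and 2 of them were higher and 1 lower at 2-fold, against 6.05% and 1.74% of all genes tested. After length adjustment 0 were higher and 1 was lower, against 2.14% and 1.9% of all genes tested. The higher pair were Sec24b, a coat subunit, at 1.32, or 0.96 after the adjustment, and Sec16a, which organises the exit sites, at 1.28, or 0.37. Kdelr3, one of the receptors that return KDEL-tailed chaperones to the ER, was lowest at -2.26 with 14 counts in knockout and 61 in wild type. All 6 ER-phagy receptors lay within 1.5-fold, from -0.41 for Tex264 to 0.40 for Atl3. Of 10 ER calcium genes, 1 passed 2-fold, Itpr3, a calcium release channel, at 1.21 and at 0.28 after length adjustment, and Tmco1 was lowest at -0.39. Itpr2, at -0.14 by scaled counts, was -1.33 after the adjustment. Of 14 cytosolic and mitochondrial heat shock genes, Hspb1 was at least 2-fold lower at -1.68 and Hspa1a highest at 0.54, with a median of -0.30. Collagen chaperones and enzymes held 2 of 11 genes at least 2-fold lower, Serpinh1 (Hsp47) at -2.50 with 121 counts in knockout and 593 in wild type, and Plod2 at -1.05, while Plod1 was highest at 0.43.

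**Figure D4:**
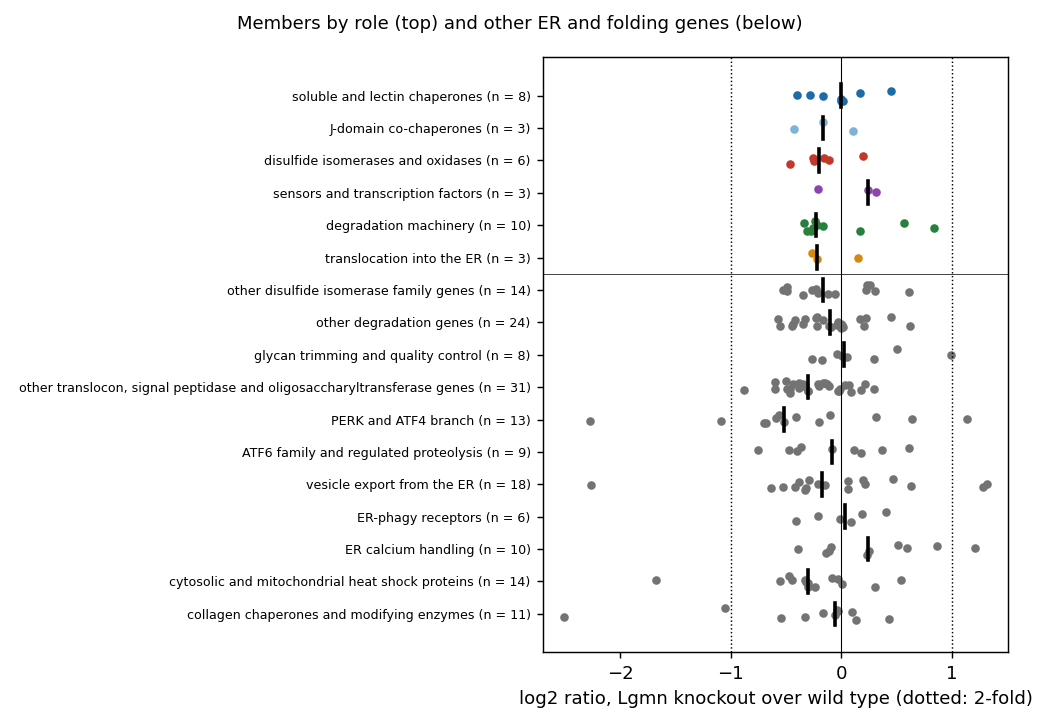
Log2 ratio of knockout over wild type for each gene compared, in the 6 role groups of the members (coloured, top) and 11 lists of related genes (grey), 1 library per genotype; black bars are medians and dotted lines mark 2-fold. No member passes the dotted lines, and the lowest single values, near -2.3 and -2.5, belong to Asns, Kdelr3 and Serpinh1.

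The cell types behind the RNA were checked with fixed marker lists. Macrophage markers were abundant, with 12 of 12 compared and a summed FPKM of 20197 in the knockout library and 21123 in the wild type library. Lyz2 and Cd68 held most of that sum, and 9 of the 12 had a higher FPKM in the knockout library. By scaled counts the median log2 ratio of the 12 was 0.37. At least 2-fold, 1 was higher, Mertk at 1.23, and 0 were lower, where 6.05% and 1.74% of all genes tested lay. Of 14 fibroblast and stromal markers, 11 were compared and 9 were at least 2-fold lower, against 1.74% of all genes tested. The list had a summed FPKM of 42.7 in knockout and 148 in wild type. Col1a1 had 38 counts in knockout and 97 in wild type. Thy1 went the other way, with 198 in knockout and 140 in wild type, a log2 ratio of 0.28, and Fn1 lay at -0.38. Serpinh1, Plod2 and Kdelr3 were lower in the knockout library too. Which cells these transcripts came from was not tested, nor was the part of any cell type in any ratio. T and NK cell markers numbered 7 compared of 13, with 5 at least 2-fold higher, against 6.05% of all genes tested. This list had a summed FPKM of 55.6 in knockout and 24.3 in wild type, and Trac was listed in neither file. Plasma and B cell markers, of cells rich in ER, were low but for the 2 of 12 compared, Sdc1 with 4958 counts in knockout and 6196 in wild type and Prdm1 with 200 and 96. The other 10 had at most 37 counts in either library, with Pax5 in neither file and Jchain at 20 in knockout and 12 in wild type. Of 9 dendritic cell markers 2 were compared, 1 at least 2-fold higher, against 6.05% of all genes tested. The summed FPKM of the 9 was 37.1 in knockout and 31.0 in wild type. Of 10 epithelial markers 1 was compared, Krt19, and it was at least 2-fold lower, against 1.74% of all genes tested. Krt19 had 4 counts in knockout and 67 in wild type, a log2 ratio of -3.96. The list summed to 1.22 FPKM in knockout and 5.64 in wild type. In bulk RNA, fewer cells of a type and less RNA per cell cannot be told apart.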

How the data were processed

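RNA of 1 Lgmn knockout and 1 wild type library was sequenced on BGISEQ-500, per the labels' protocols. The deposited files give estimated counts per Entrez gene and FPKM, scaled by the authors for length and depth, per the file headers. The submitters' processing notes name HISAT2, Bowtie2, RSEM and mm10, and give neither role nor version. Symbols for 15561 of 15605 genes were taken from RefSeq (GRCm38.p6), and exon overlaps from GENCODE vM21. Estimated counts were rounded and scaled with TMM factors (1.086 for knockout and 0.921 for wild type) from edgeR 4.0.16 in R 4.3.3. The log2 ratio is knockout over wild type with 1 scaled count added to each. Genes with 50 estimated counts in the higher library were compared. The 95% intervals of a ratio come from exact Clopper-Pearson limits on the share of counts in knockout. Intervals reflect counting error and nothing else, because each genotype had 1 library. PCR copies were not marked, so the intervals may be too narrow even for counting error.

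Size was read at 2-fold and 1.5-fold, with no test, since each group had 1 library. Alternatives were DESeq2 1.42.0 size factors, library totals, deposited FPKM with 0.1 added, other minimums and pseudocounts, thinning, and subtraction of a lowess trend (statsmodels 0.14.6, span 0.3) on log2 length. In counts simulated for this comparison with 200 genes changed 3-fold, 100 of 100 raised and 100 of 100 lowered genes passed 1.5-fold, as did 53 of 9096 unchanged ones. With 200 genes changed 1.7-fold, 97 of 100 raised and 92 of 100 lowered genes passed, as did 63 of 9119 unchanged ones. Both simulated libraries were drawn from the same averaged profile with counting error only, without a length trend or other spread between libraries. The simulation therefore gives no error rate for the 1.5-fold limit in the real libraries. The rule for the members uses no measured value, but members, lists and alternatives were all chosen with earlier results of these data known. Named in full are members past 1.5-fold, the 6 of highest FPKM and the sensors. Of each related list, the genes with the highest and lowest ratio are named. Other named genes, the grouping by promoter element and the 5000-base split were chosen after values were seen.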

Additional observations from a re-analysis of the deposited data

How the results depend on the processing

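With library totals 1 member passed 2-fold and 3 passed 1.5-fold on the higher side, the median log2 ratio of the members was 0.075 and that of their summed counts 0.12. Deposited FPKM gave 1 and 3, a median of 0.077 and a summed ratio of 0.0908. With TMM scaling these were 0 and 1, where 6.05% and 16.4% of all genes tested lay, and -0.16 and -0.12. Both alternatives leave out the TMM factors, which moves all genes up together. The median of all genes tested was 0.24 with library totals and 0.23 with deposited FPKM. The shares of all genes past 2-fold and 1.5-fold were not computed for these alternatives or for other minimums. The member counts under them therefore have no background to be read against. A minimum of 200 counts left 0 members at least 1.5-fold higher, because Syvn1 was no longer compared. No minimum gave 1 member at least 2-fold lower and 1 at least 1.5-fold lower, Derl3, at 0 and 1 counts. Length adjustment gave 1 and 2 on the lower side, where 1.9% and 6.33% of all genes tested lay. Its median was -0.11, and the members were Ssr1 and Edem1. DESeq2 size factors, a minimum of 10 counts, pseudocounts of 0.5 and 5 and thinning of the deeper library changed none of these counts. Syvn1 kept its sign in all alternatives in which it was compared, with log2 ratios from 0.74 to 1.13. No paired analysis was possible because each genotype had 1 library, and for the same reason no library could be left out. Counting error limits Ern1, Herpud1 and Syvn1 most, at 90 to 170 counts in the higher library.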

Other observations

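Outside the 34 genes, 27 others carried the ER stress response element in the promoter window, and 3 of them reached 50 counts. Alg12, a mannosyltransferase that builds the glycan added in the ER, had 119 counts in the knockout library and 108 in the wild type library, a ratio of 0.945 (0.722 to 1.24). It starts 327 bases from Creld2 on chromosome 15, so the element printed for Creld2 lies between them. Adcy3, an adenylyl cyclase, had 71 counts in knockout and 35 in wild type, a ratio of 1.74 (1.15 to 2.69). Hnrnpa3, an RNA-binding protein, had 1580 counts in knockout and 1302 in wild type, a ratio of 1.04 (0.967 to 1.12). These genes were looked at after the members' values were seen.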
